A study of Mus musculus with 4 samples.

Results

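The quantity described here is how far the citalopram change in gene expression moved between day 3 and day 7 of culture. For each gene, the log2 difference between citalopram and control at day 3 was subtracted from the same difference at day 7, and the result is called the shift. A negative shift means that citalopram cells stood lower against control at day 7 than at day 3, and a positive shift means that they stood higher. The shift was set beside the mean of the 2 changes. All 4 of the 4 arrays of the series enter each shift, and it was taken for every gene that the platform annotation names, 19938 genes in all. Of these, 12415 reached a brightness floor, the 40th percentile of an array's genes (5.95 to 6.01 on the log2 scale), on at least 1 array, and the other 7523 did not.

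The cells were MC3T3-E1, an established line of pre-osteoblasts from the calvaria, the skull roof, of C57BL/6 mice. Control cells at day 3 and at day 7 received proliferation medium without drug, and the other groups received the same medium with citalopram, a selective serotonin reuptake inhibitor used as an antidepressant, at 100 µmol per litre for 3 or for 7 days. All groups grew from 50000 cells per well in medium with 1% serum, and per the labels' protocols 3 wells were untreated and 3 treated. Each group is 1 array, so no value below has a replicate or an error, no difference was tested. The sources used here do not say whether the wells of a group were combined before hybridisation.

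Pre-osteoblasts divide, then lay down a collagen matrix and later mineralise it, and they signal to bone-resorbing cells through secreted factors. Dividing cells make much of their own cholesterol: the transcription factor SREBP-2, held in the endoplasmic reticulum when sterols are plentiful, turns on the enzymes of the pathway when sterols run low. Genes of mitosis are switched on late in each cell cycle, so their summed level in a culture follows how many cells are dividing. In bulk RNA, fewer cells of a kind and less RNA per cell cannot be told apart.

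The medians over all features were 6.50, 6.50, 6.60 and 6.66 on the arrays of control day 3, citalopram day 3, control day 7 and citalopram day 7, the order in which values of the 4 arrays are given throughout. Pearson's r between arrays, across features, lay between 0.986 and 0.995. Of the pre-osteoblast markers, 8 of 8 measured reached the floor, with single values from 5.93 to 14.1, the lowest being alkaline phosphatase (Alpl). Of the markers of other cell types, the floor was reached by 0 of 6 adipocyte, 1 of 7 endothelial, 2 of 9 macrophage and osteoclast, 3 of 7 keratinocyte, 3 of 6 osteocyte, 4 of 8 chondrocyte and 5 of 7 myogenic genes, and the median shift of these 7 lists ran from -0.19 to 0.00. Day and culture passage or density cannot be told apart, since each day is a separate pair of arrays.

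Shifts were mostly small. Among genes above the floor the median shift was -0.03 and the standard deviation across genes 0.25. A shift of at least 2-fold was seen in 6 genes in the positive direction (0.0483% of those above the floor) and in 15 in the negative direction (0.121%). At 1.5-fold, 143 shifts were positive (1.15%) and 227 negative (1.83%). After quantile normalization this split was 107 and 276, so the positive share of the 1.5-fold shifts went from 38.6% to 27.9%. With cyclic loess the split was 151 and 198 (43.3% positive). With the floor required on every array it was 130 and 182 (41.7%). The negative side also held the larger share when small values were counted: of all 19938 measured genes 11972 had a shift below 0 and 39.9% a shift above 0, and the median was -0.05.

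This leaning to the negative side was also present in genes at background. Genes under the floor had a median shift of -0.08, from a median change of 0.04 at day 3 and -0.04 at day 7. It did not follow brightness in order: in equal bins of genes above the floor, from the dimmest to the brightest, the median shifts were -0.04, 0.04, 0.01, -0.03 and -0.09. Scaling the arrays by cyclic loess brought the median of all measured genes to -0.01 and the share below 0 to 51.6%. Features with several gene symbols or none did not lean this way: their median shift was 0.002 and 50.3% were above 0. List values below are therefore read beside the value of all measured genes, and their overlap with the leaning of these genes was not tested.

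**Figure D1:**
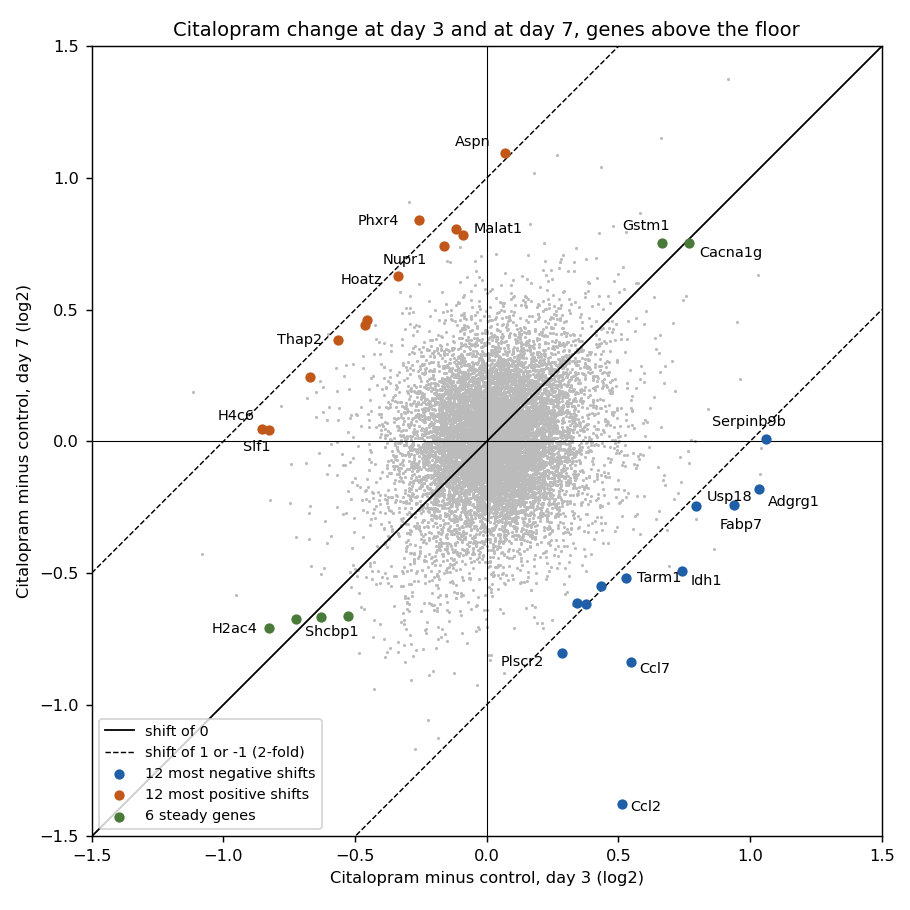
Log2 difference between citalopram and control at day 3 (x axis) and at day 7 (y axis) for the 12415 genes above the floor, 1 grey point per gene, with the 12 most negative shifts under the naming rule in blue, the 12 most positive in orange and 6 steady genes in green. The solid diagonal is a shift of 0 and the dashed lines a shift of 1 or -1; Ccl2 lies farthest from the diagonal, at 0.51 and -1.38.

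The mean of the 2 changes reached large sizes in more genes than the shift divided by 2. The mean of the 2 changes and the shift divided by 2 each weigh every array equally, so independent noise of single arrays enters both to the same degree. The mean change reached 1.5-fold in 35 genes (0.282%), 20 of them higher with citalopram (0.161%) and 15 lower (0.121%). The shift divided by 2 reached it in 9 genes (0.0725%), 3 positive (0.0242%) and 6 negative (0.0483%). The standard deviations across genes were 0.151 for the mean change and 0.127 for the shift divided by 2. In 5840 of the 12415 genes above the floor (47.0%) the shift divided by 2 was the larger. A mean change can also come from 1 day alone: 8 genes passed 1.5-fold in the same direction at both days. At an absolute size of at least 0.3 there were 723 genes by the mean change and 334 by the shift divided by 2, and at 0.5 there were 86 and 21. Without replicates, neither number separates a difference between the days from the noise of the arrays.

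**Figure D2:**
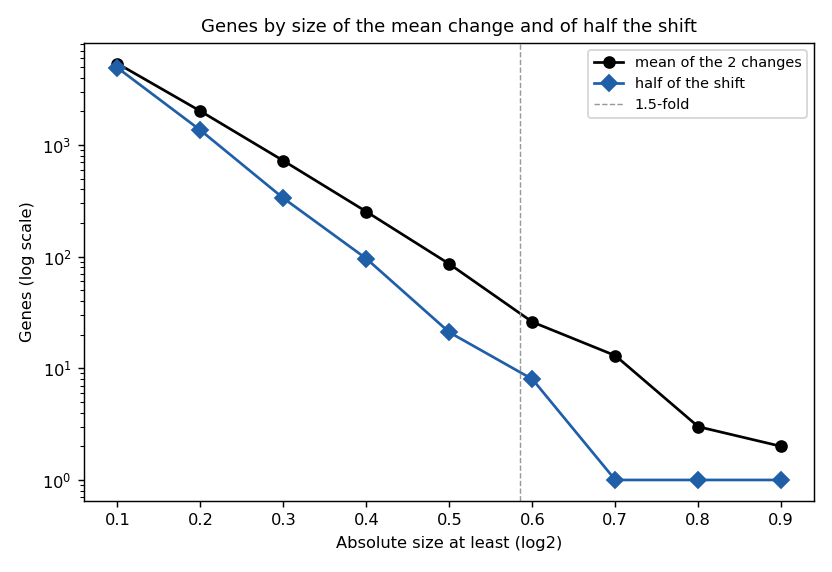
Number of genes above the floor (y axis, log scale) whose mean change (black circles) or shift divided by 2 (blue diamonds) reached at least the absolute log2 size on the x axis. The counts were 5372 and 4917 at 0.1 and parted to 253 and 96 at 0.4.

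Most large shifts joined modest changes of opposite sign at the 2 days. Of the 227 negative shifts past 1.5-fold, 203 had a change above 0 at day 3 and below 0 at day 7, against 3351 of the 12415 genes above the floor, a property that a large difference of 2 numbers brings with it. In 154 of the 227 neither day alone reached 1.5-fold, and the set's median changes were 0.33 at day 3 and -0.37 at day 7. Over time the same set had a median of 0.19 between the control arrays and -0.54 between the citalopram arrays. The 143 positive shifts were the mirror image, with median changes of -0.31 and 0.38, and a median of -0.23 over time in control and 0.49 with citalopram. Changes of more than 0.322 on the log2 scale in opposite directions were found in 48 genes (0.387%), 31 of them higher at day 3 and 17 lower at day 3. Changes of that size in the same direction at both days were found in 180 genes, and with 1.5-fold as the limit these counts were 0 and 8.

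Genes of cholesterol synthesis had the most negative median shifts of the 36 gene lists. The members are the pathway's textbook steps, but the lists were chosen with earlier results of these data known. Their rank and counts are therefore not independent of these data. All 7 measured genes of the mevalonate segment, which runs from acetyl units to isoprenoid precursors, had a shift below 0, with a median of -0.66 (all measured genes -0.05). Their median change was 0.21 at day 3 and -0.44 at day 7. The squalene and sterol segment had 10 of 11 shifts below 0 and a median of -0.60, from 0.27 at day 3 to -0.27 at day 7. Of the 18 genes of both segments, all above the floor, 17 had a change above 0 at day 3 and below 0 at day 7, a course taken by 32.1% of all measured genes, and 10 shifts were lower by 1.5-fold, against 1.45%. In 15 of the 18 the control array was higher at day 7 than at day 3 while the citalopram array was lower, against 26.7% of all genes. The control arrays thus moved too, by a median of 0.19, beside -0.31 with citalopram.

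The CCAAT box, bound by NF-Y, a factor known to act beside SREBP-2, was searched for in promoters of the cholesterol genes. Shown are the promoters of the 3 cholesterol genes with the most negative shifts among those with an entry. They are RefSeq sequences of assembly GRCm38.p6, 250 bases before to 50 after the annotated start, 5′ to 3′ on the gene's strand, with CCAAT or its reverse complement ATTGG in capitals. The stretches are chr1:169969156-169969455 (minus strand) for Hsd17b7, chr13:8885356-8885655 (plus) for Idi1 and chr8:64733529-64733828 (minus) for Msmo1.
Hsd17b7: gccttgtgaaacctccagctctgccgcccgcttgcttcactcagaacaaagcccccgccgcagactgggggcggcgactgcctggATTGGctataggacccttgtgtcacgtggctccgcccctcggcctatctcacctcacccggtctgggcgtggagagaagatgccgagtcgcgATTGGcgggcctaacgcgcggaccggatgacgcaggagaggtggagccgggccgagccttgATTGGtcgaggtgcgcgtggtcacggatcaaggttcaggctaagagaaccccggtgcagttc
Idi1: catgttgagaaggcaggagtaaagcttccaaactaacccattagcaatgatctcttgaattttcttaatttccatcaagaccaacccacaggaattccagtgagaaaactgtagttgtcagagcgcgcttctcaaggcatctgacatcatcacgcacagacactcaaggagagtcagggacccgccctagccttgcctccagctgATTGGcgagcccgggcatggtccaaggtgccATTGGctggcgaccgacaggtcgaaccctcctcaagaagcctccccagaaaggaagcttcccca
Msmo1: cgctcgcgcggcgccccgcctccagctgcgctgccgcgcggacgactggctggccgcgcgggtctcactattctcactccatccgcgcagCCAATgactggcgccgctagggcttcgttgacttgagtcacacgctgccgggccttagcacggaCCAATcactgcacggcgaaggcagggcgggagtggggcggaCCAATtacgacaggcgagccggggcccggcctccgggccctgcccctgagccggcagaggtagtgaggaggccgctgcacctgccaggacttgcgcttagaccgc
Hsd17b7 and Msmo1 hold 3 CCAAT boxes each and Idi1 holds 2. The box was found on either strand in 15 of 18 promoters of the cholesterol genes (83.3%), which cover 15 of the genes, and in 12289 of all 32851 promoters in the table (37.4%). The sterol element, searched as TCACNCCAC, was found in 1 of the 18 promoters and in 1.24% of all. A match describes letters in this window and shows no binding. Fdft1 and Fdps had no entry.

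Along the mevalonate segment, Hmgcs1, which makes the HMG-CoA that feeds the pathway, was at 10.08, 10.35, 10.40 and 10.17, a shift of -0.50. Mvk, mevalonate kinase, was at 9.04, 9.22, 8.87 and 8.34, a shift of -0.72, and its day 7 citalopram value was the lowest of the 4. Mvd, the decarboxylase that follows, had a shift of -0.66. Idi1, the isomerase that balances the isoprenoid building blocks, was at 10.16, 10.37, 10.61 and 9.92, so that its change went from 0.21 to -0.69, a shift of -0.90. Its features gave -0.90 to -0.87. Fdps, which makes farnesyl diphosphate, was at 10.04, 10.34, 10.41 and 9.93, a shift of -0.78. Pmvk, phosphomevalonate kinase, and Ggps1, which makes geranylgeranyl diphosphate for protein prenylation, each had a shift of -0.30. In Idi1 and Fdps the control array at day 7 was the highest of the 4 and the citalopram array at day 7 the lowest.

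In the squalene and sterol segment, Hsd17b7, a reductase of the removal of the sterol's methyl groups, was at 10.02, 10.67, 10.08 and 9.82. Its shift of -0.92 was the most negative of the pathway, and its day 3 citalopram array stood above the rest. Fdft1, squalene synthase, was at 10.90, 11.19, 11.16 and 10.62, a shift of -0.84, while its features ranged from -0.84 to -0.54. Msmo1, a methylsterol oxidase, was at 11.48, 11.75, 11.59 and 11.10, a shift of -0.75. Lss, lanosterol synthase, had a shift of -0.72, Nsdhl of -0.63, Cyp51, lanosterol demethylase, of -0.60 and Sqle, squalene epoxidase, of -0.55. Tm7sf2 and Dhcr7, sterol reductases, and Sc5d, a desaturase, shifted less, at -0.35, -0.30 and -0.31. Ebp, the sterol isomerase, was the exception, lower with citalopram at both days (-0.17 and -0.09) with a shift of 0.08.

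**Figure D3:**
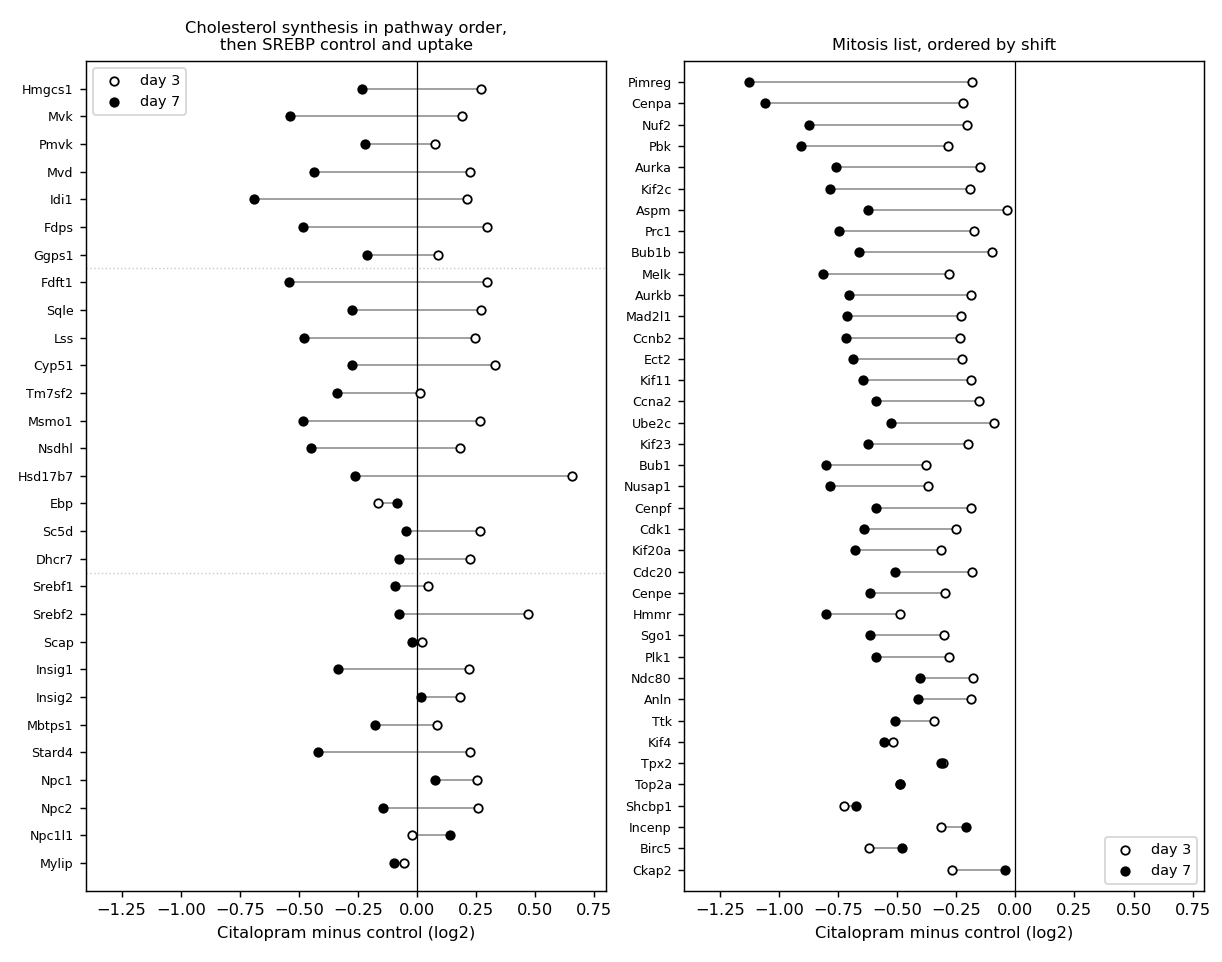
Log2 difference between citalopram and control at day 3 (open circles) and day 7 (filled circles) for genes of cholesterol synthesis, SREBP control and uptake (left) and for 38 mitosis genes (right), 1 gene per row. Cholesterol genes lie on opposite sides of 0 at the 2 days in 17 of 18 rows of the pathway, whereas all 38 mitosis genes lie below 0 at both days.

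Regulators of the pathway shifted the same way but less. Of 11 measured genes for SREBP control and cholesterol uptake, 10 of them above the floor, 10 had a shift below 0, with a median of -0.18. Of all 19938 measured genes, 11972 were below 0 (median -0.05). Srebf2, which encodes SREBP-2, was at 9.85, 10.32, 10.18 and 10.10, a change of 0.47 and then -0.08, so its shift of -0.55 came mainly from day 3. Insig1, a sterol sensor that retains SREBP in the endoplasmic reticulum and is itself an SREBP target, was at 10.74, 10.96, 10.98 and 10.65, also a shift of -0.55. Stard4, a cytosolic sterol carrier, was at 8.92, 9.14, 8.65 and 8.23, a shift of -0.64. Srebf1 and Scap, the escort protein of SREBP, shifted by -0.14 and -0.04. Of 6 measured genes of cholesterol efflux and LXR targets, 4 had a shift below 0, with a median of -0.08, and Abca1, the efflux pump, was at 0.17 from values near the floor.

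Fatty acid synthesis genes, also under SREBP control, followed with 14 of 15 shifts below 0 and a median of -0.20 (12 of the 15 above the floor). Of all 19938 measured genes, 11972 were below 0 (median -0.05). Elovl6, an elongase of saturated fatty acids, was at 9.85, 10.34, 9.81 and 9.60, a shift of -0.70. The desaturase genes Fads2, Fads1 and Scd1 shifted by -0.55, -0.42 and -0.42, and Fasn, fatty acid synthase, by -0.42. Scaling mattered for this list, whose median was -0.31 after quantile normalization. Fatty acid oxidation was mixed: 8 of 13 shifts were below 0, close to the share of all measured genes, with a median shift of -0.11. Yet the median change went from -0.01 at day 3 to 0.07 at day 7, the opposite sign, because different genes hold the middle rank. Acaa2, a thiolase, was at -0.38 and Acadl, an acyl-CoA dehydrogenase, at 0.26.

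The most negative shift of all measured genes was that of Ccl2, the chemokine that draws monocytes, at -1.89. Its values were 8.53, 9.04, 9.47 and 8.09. Control at day 7 was the highest of the 4 and citalopram at day 7 the lowest, so that from day 3 to day 7 the gene was 0.94 higher in control and 0.95 lower with citalopram. Ccl7, a related monocyte chemokine, was at 7.59, 8.13, 8.21 and 7.37, a shift of -1.39 with the same order of arrays at the top and bottom. Ccl9, a chemokine for osteoclast precursors, was at 7.09, 7.57, 7.04 and 6.69, a shift of -0.83 in which the day 3 citalopram array was highest. The promoters of Ccl2 and Ccl7 had no entry.

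Of the 30 measured genes for chemokines and cytokines, 18 above the floor, 24 had a shift below 0 and 6 were lower by 1.5-fold, with a median of -0.14 (-0.08 with cyclic loess). Of all measured genes, 11972 of 19938 were below 0 and 1.45% were lower by 1.5-fold. Vcam1, an adhesion molecule for leukocytes, was at 10.85, 11.50, 11.15 and 11.05, a shift of -0.75. Nfkbia, the NF-kappaB inhibitor that NF-kappaB itself induces, was at 9.36, 9.69, 10.04 and 9.76, a shift of -0.61. Il6 was at 5.73, 6.29, 5.61 and 5.56, above the floor on the day 3 citalopram array only, with a shift of -0.60. Ptgs2, cyclo-oxygenase 2, shifted by -0.45 and Tnfaip3, a brake on NF-kappaB signalling, by -0.41. The highest shifts in the list were those of Cxcl5, below the floor (0.29), Ccl5 (0.24) and Relb (0.22). Macrophage and osteoclast markers stood at means of 5.96, 6.08, 5.98 and 5.98 with 2 of 9 above the floor, and their part in these values was not tested.

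Interferon-response genes held a pair of large negative shifts in an otherwise divided list. Usp18, the protease that removes the ubiquitin-like ISG15, was at 7.03, 7.83, 7.53 and 7.29, a shift of -1.04, with the day 3 citalopram array highest. Oasl2 was at 8.09, 8.17, 8.30 and 7.77, a shift of -0.61, with the day 7 citalopram array lowest. Ifit1 shifted by -0.54 and Rtp4 by -0.50, while Psmb9, an immunoproteasome subunit, was at 0.32 and Ifi35 at 0.22. In all, 14 of 23 were below 0, close to the 11972 of 19938 of all measured genes, and 16 of 23 were above the floor. The list's median was -0.15 (all measured genes -0.05) and ran from -0.24 with protein-coding genes only to -0.08 with cyclic loess. The median changes of the 2 days, -0.07 and -0.08, barely differ, so this median shift does not describe a common course.

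Mitosis genes differed from the cholesterol genes in that their shift deepened a difference already present. All 38 measured genes, all above the floor, were lower with citalopram at both days, against 22.9% of all measured genes. Of the 38, 33 were further below control at day 7, beside 2714 of the 4556 measured genes lower at both days. The median change went from -0.23 to -0.64, a median shift of -0.42, and 7 shifts were lower by 1.5-fold (all measured genes 1.45%). The list's median difference from day 3 to day 7 was 0.03 between the control arrays and -0.37 between the citalopram arrays.

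Promoters of the 3 mitosis genes with the most negative shifts among those with an entry are shown for the contrast in sequence. Many cell cycle promoters join CCAAT boxes to the cell cycle homology region TTTGAA close to the start, where the DREAM complex binds. CCAAT (or ATTGG) and TTTGAA (or TTCAAA) are in capitals, and the motifs do not overlap. The stretches, of the same length and source as above, are chr5:30666636-30666935 (plus strand) for Cenpa, chr2:172370521-172370820 (minus) for Aurka and chr1:169531415-169531714 (minus) for Nuf2.
Cenpa: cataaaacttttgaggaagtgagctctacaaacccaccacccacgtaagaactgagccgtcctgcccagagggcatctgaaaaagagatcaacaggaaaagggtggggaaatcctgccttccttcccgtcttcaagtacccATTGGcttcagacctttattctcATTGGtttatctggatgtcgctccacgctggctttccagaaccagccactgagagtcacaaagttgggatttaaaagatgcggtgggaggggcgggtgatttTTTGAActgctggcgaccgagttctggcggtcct
Aurka: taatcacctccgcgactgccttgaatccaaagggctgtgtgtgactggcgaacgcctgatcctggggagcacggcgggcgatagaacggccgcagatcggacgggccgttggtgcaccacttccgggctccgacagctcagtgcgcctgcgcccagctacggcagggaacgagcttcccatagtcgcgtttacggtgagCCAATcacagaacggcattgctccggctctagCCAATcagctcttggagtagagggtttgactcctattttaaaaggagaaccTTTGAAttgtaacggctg
Nuf2: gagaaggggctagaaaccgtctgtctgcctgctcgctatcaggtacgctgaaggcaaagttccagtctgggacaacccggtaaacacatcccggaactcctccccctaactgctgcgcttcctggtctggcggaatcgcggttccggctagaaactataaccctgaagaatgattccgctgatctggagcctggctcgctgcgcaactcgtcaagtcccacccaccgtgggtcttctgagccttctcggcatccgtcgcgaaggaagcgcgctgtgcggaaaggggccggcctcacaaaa
Cenpa and Aurka each hold 2 CCAAT boxes and 1 TTTGAA, and Nuf2, whose shift lies between theirs, holds neither. Over the list, which 32 promoters of 30 genes represent, CCAAT was found in 24 promoters (75.0%) and TTTGAA also in 24, against 37.4% and 17.9% of all promoters, and TTTGAA was found in 1 of the 18 cholesterol promoters. Pimreg and Pbk had no entry.

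The mitosis gene with the most negative shift was Pimreg, a mitotic regulator, at 10.04, 9.86, 10.17 and 9.04 and a shift of -0.94. Cenpa, the histone variant that marks centromeres, was at 10.74, 10.51, 10.95 and 9.89, a shift of -0.84. Nuf2, part of the outer kinetochore, was at 10.69, 10.49, 10.54 and 9.67, a shift of -0.67. In these 3 genes the day 7 citalopram array stood alone below the others. Pbk, a mitotic kinase, shifted by -0.62, Aurka, aurora kinase A, by -0.61, and Kif2c, a microtubule-depolymerising kinesin, by -0.59. Other members were as low at day 3 as at day 7. Top2a, topoisomerase II alpha, was at -0.49 on both days (shift 0.00), Tpx2, the activator of Aurka, had a shift of -0.01 and Kif4 of -0.04. The 5 members with a shift above 0 were Top2a, Ckap2 (0.22), Birc5, which encodes survivin (0.14), Incenp (0.11) and Shcbp1 (0.05).

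DNA replication genes shifted less than mitosis genes. Of 34 measured, all above the floor, 31 had a shift below 0, beside 11972 of all 19938 measured genes. The list's median change was -0.13 at day 3 and -0.35 at day 7, with a median shift of -0.25 (all measured genes -0.05). Rfc5, a subunit of the clamp loader, was at 10.77, 10.78, 10.88 and 10.06, equal in both groups at day 3 and 0.81 lower with citalopram at day 7 (-0.81), a shift of -0.82. Gins2, of the replicative helicase, was at 9.69, 9.69, 10.03 and 9.35, a shift of -0.67. Mcm5 and Cdc45, also of that helicase, shifted by -0.46 each and Tk1, thymidine kinase, by -0.45. Pola1, a DNA polymerase subunit, had its larger difference at day 3 (-0.61, then -0.39), a shift of 0.22, and Pcna, the sliding clamp, had a shift of -0.06. Among cyclins and inhibitors of the G1 phase, 19 of 23 shifts were below 0 (22 above the floor; median -0.13), led by E2f7 (-0.52), Ccne1 (-0.51) and Ccnd3 (-0.51), while E2f3 was at 0.36.

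**Figure D4:**
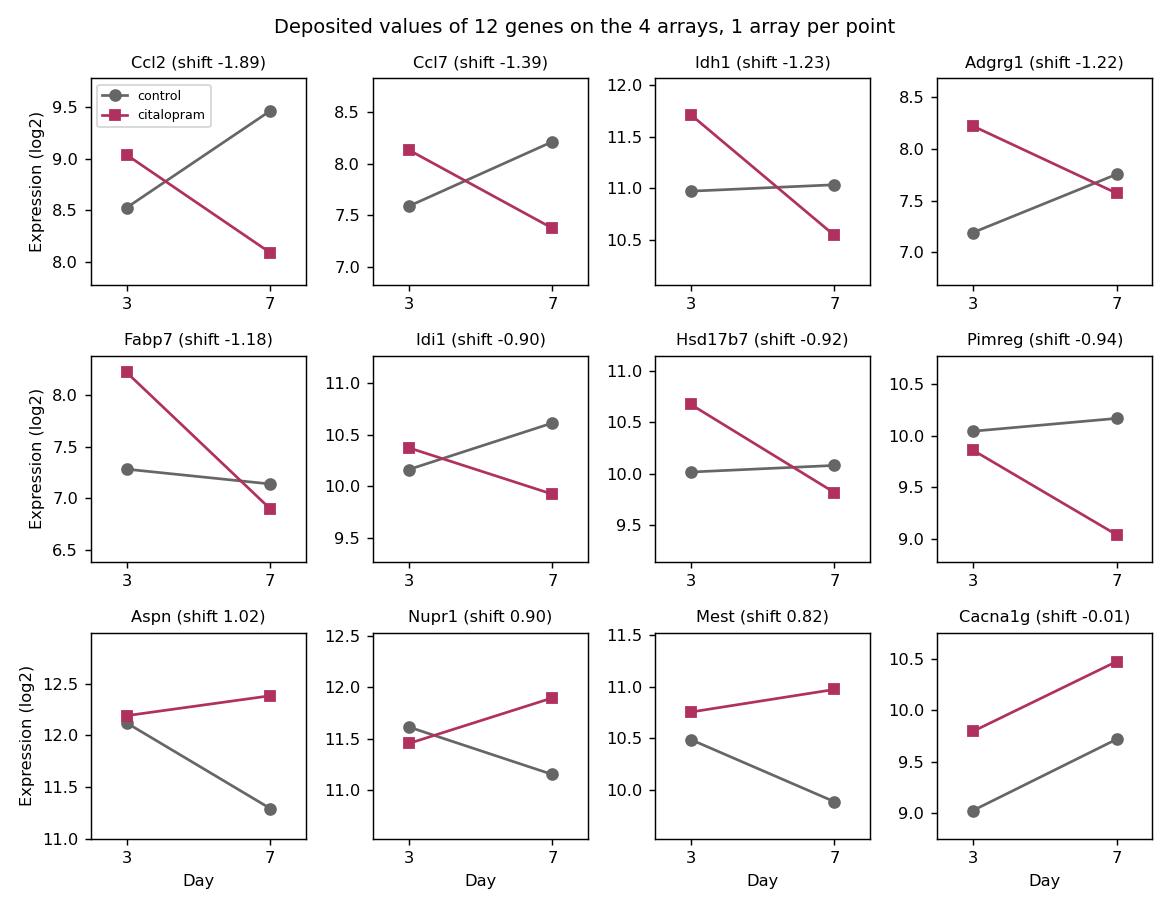
Deposited log2 values of 12 genes (y axis) at day 3 and day 7 (x axis), with control as grey circles and citalopram as red squares, 1 array per point. Lines cross where the citalopram change turned over, as for Ccl2, Idh1, Idi1 and Nupr1, and run side by side for Cacna1g, whose shift was -0.01.

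Further genes with shifts near or past 2-fold had other functions. Idh1, the cytosolic isocitrate dehydrogenase that supplies NADPH, was at 10.97, 11.71, 11.03 and 10.54, a change of 0.74 and then -0.49 and a shift of -1.23, while the control arrays differed by 0.06. The other 7 NADPH-producing enzymes measured had shifts between -0.29, for the mitochondrial Idh2, and 0.09, for Mthfd1. Plscr2, a phospholipid scramblase family member, was at 10.45, 10.74, 10.59 and 9.78 (-1.09). Itga2, a collagen-binding integrin subunit, was at 7.06, 7.49, 6.77 and 6.22 (-0.99), and Slc31a2, of the copper transporter family, was at 11.51, 11.85, 11.47 and 10.86 (-0.96). In Plscr2, Itga2 and Slc31a2 the citalopram arrays held the highest value at day 3 and the lowest at day 7. Tarm1, an immune cell receptor, was at 8.13, 8.66, 7.71 and 7.19 (-1.05), and Adam34l, of the ADAM metalloprotease family, at 6.03, 6.41, 6.27 and 5.66 (-0.99), close to the floor.

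In Adgrg1, Fabp7 and Serpinb9b most of the difference lay at day 3. Adgrg1, an adhesion G protein-coupled receptor, was at 7.19, 8.22, 7.75 and 7.57, a change of 1.03 and then -0.18. Fabp7, a fatty acid-binding protein, was at 7.28, 8.22, 7.14 and 6.90, a change of 0.94 and then -0.24. Serpinb9b, a serpin protease inhibitor, was at 8.26, 9.32, 9.31 and 9.32, so that the change of 1.06 at day 3 was 0.01 at day 7, after the control array had reached the citalopram level. The shifts of these 3 genes were -1.22, -1.18 and -1.05. They differ in which arrays moved, since control was higher at day 7 than at day 3 for Serpinb9b and Adgrg1 and slightly lower for Fabp7 (-0.14).

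Several of the most positive shifts came mainly from a difference at day 7. Aspn, asporin, a small leucine-rich proteoglycan that binds collagen and TGF-beta, was at 12.12, 12.19, 11.29 and 12.39, a shift of 1.02 in which the day 7 control array stood alone below the others. Nupr1, a stress-induced chromatin protein, was at 11.61, 11.45, 11.15 and 11.90, a shift of 0.90. Malat1, a nuclear long non-coding RNA, was at 11.33, 11.24, 12.50 and 13.28, a shift of 0.87 on top of higher values at day 7 in both groups. Phxr4 was at 6.62, 6.36, 6.91 and 7.75, a shift of 1.10. Hoatz, a gene linked to cilia, was at 8.27, 7.94, 7.58 and 8.21 (0.96), and Thap2, a zinc finger protein, at 9.87, 9.31, 9.18 and 9.56 (0.95), with both days contributing in each.

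In Slf1 and H4c6 the shift came from values lower with citalopram at day 3, and in Brox from both days. Slf1, which brings the SMC5 and SMC6 complex to DNA damage, was at 8.29, 7.44, 7.75 and 7.79, a shift of 0.90 whose features gave 0.63 to 0.90. H4c6, a histone H4 gene with near-identical copies that its probes may not separate, was at 11.54, 10.72, 11.80 and 11.85 (0.87). Brox, a BRO1 domain protein, was at 9.64, 9.19, 9.30 and 9.76 (0.92), but its other feature gave -0.04, so this value rests on the brighter feature. Thoc2l and Usp17ld both had shifts of 0.92 and Caap1 of 0.90. Usp17ld, at 6.60, 5.93, 5.83 and 6.08, was under the floor on the day 3 citalopram and day 7 control arrays. Just inside the 2-fold limit lay Aspn (1.02) and, outside the naming rule and named after their values were seen, Gm6020 (1.01) and Olfr178 (-1.02). Just outside lay Adam34l (-0.99), Itga2 (-0.99) and Hoatz (0.96).

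Osteoblast genes shifted little as a group and by much more in a few members. Of 18 measured regulators of the lineage, 16 above the floor, 13 had a shift below 0, beside 11972 of all 19938 measured genes. Their median shift was -0.10 (all measured genes -0.05), from a median change of 0.14 at day 3 to 0.06 at day 7. Vdr, the vitamin D receptor, was at 10.58 and 11.01 on the day 3 arrays and at 10.71 on the day 7 citalopram array, a change of 0.44 and then -0.29 and a shift of -0.72. Sp7, osterix, was at 7.79, 8.24, 7.71 and 7.79 (-0.38), with the day 3 citalopram array above the rest. Twist2, a repressor of osteoblast maturation, was at 7.59, 7.68, 7.63 and 7.16 (-0.56). Dlx6, a homeobox gene, went the other way at 6.87, 6.84, 6.36 and 6.90 (0.56), its day 7 control array being the lowest. Dlx5, its genomic neighbour, was higher with citalopram at both days (0.42 and 0.23) with a shift of -0.19.

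Of 19 genes of osteoblast matrix and mineralisation, 16 above the floor, 12 had a shift below 0 and the median was -0.10. The count is close to the share of all measured genes, 11972 of 19938 (median -0.05). The negative end held the genes of phosphate and pyrophosphate transport. Slc20a1, a phosphate transporter, was at 10.77, 11.34, 11.17 and 11.07 (-0.67), its relative Slc20a2 at 9.98, 10.31, 10.03 and 9.85 (-0.51), and Ank, the pyrophosphate transporter, at 10.97, 11.23, 10.47 and 10.18 (-0.55). Col1a1 and Col1a2, the chains of type I collagen, had small shifts of -0.21 and -0.28 and stood higher at day 7 than at day 3 in both groups. Ibsp, Phex and Mepe were below the floor on every array, and Alpl was near it.

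The positive end held some of the small leucine-rich proteoglycans. Besides Aspn these were Omd, osteomodulin, at 6.66, 6.52, 6.89 and 7.36 (0.60), and Ogn, osteoglycin, with changes of 0.28 and 0.69 (0.41). Lum, lumican, was at 8.40, 8.36 and 7.31 on the first 3 arrays, with changes of -0.04 and 0.69 (0.73). In Aspn and Lum the day 7 control array was the lowest of the 4, whereas in Omd and Ogn the day 7 citalopram array was the highest. The other 8 proteoglycans measured ran from -0.27 (Kera) to 0.27 (Podn), with decorin (Dcn) at -0.23, so that 5 of 12 shifts were below 0, the median was 0.04 and 3 were higher by 1.5-fold (all measured genes 0.752%).

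Most genes that fold and modify collagen had a shift below 0. Of 16 collagen processing genes, all above the floor, 14 had a shift below 0, beside 11972 of all 19938 measured genes. In 12 of the 16 the change was above 0 at day 3 and below 0 at day 7, against 32.1% of all measured genes. That course was also taken by 511 of 1027 olfactory receptor genes, which were mostly below the floor. The list's median shift was -0.30 (all measured genes -0.05), and none was lower by 1.5-fold. Loxl3, a lysyl oxidase that cross-links collagen, was at -0.45, P4ha3, a prolyl hydroxylase subunit, at -0.43, Bmp1, the procollagen C-proteinase, at -0.42 and Serpinh1, the collagen chaperone, at -0.38. Loxl4 was the exception at 0.35. The collagens themselves were divided, with 11 of 16 collagens other than type I below 0. Their median of -0.05 was that of all measured genes (-0.05). Col2a1, the cartilage collagen, was at 9.37, 9.89, 10.60 and 10.37, a shift of -0.74 within values that were higher at day 7 in both groups, and Col12a1 was at -0.41.

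Chaperones of the endoplasmic reticulum resembled the collagen processing genes. Of 24 measured, all above the floor, 22 had a shift below 0, beside 11972 of all 19938 measured genes. The list's median was -0.24 (all measured genes -0.05). A change above 0 at day 3 and below 0 at day 7 was seen in 14 of the 24, against 32.1% of all measured genes. Among 1027 olfactory receptor genes, mostly below the floor, 511 took this course as well. Pdia4, a protein disulfide isomerase, was at 12.27, 12.45, 12.45 and 11.97 (-0.65, with features from -0.65 to -0.30). Pdia6 was at -0.42, calreticulin (Calr) at -0.41 and Xbp1, a transcription factor of the unfolded protein response, at -0.38. Hspa5, which encodes the chaperone BiP, was higher at both days (0.26 and 0.04), a shift of -0.22. Selenos, a selenoprotein of the endoplasmic reticulum membrane, was at 9.74, 9.64, 9.43 and 9.85 (0.52). Lysosomal and vacuolar proton pump genes, 24 of 24 above the floor, had 21 shifts below 0, beside 11972 of all 19938 measured genes. The list's median shift was -0.21 (all measured genes -0.05), from a median change of 0.14 at day 3 to -0.02 at day 7. Atp6v0d2, a pump subunit, was at 5.95, 6.90, 5.68 and 6.13 (-0.50), under the floor on both control arrays. Atp6v0a1 was at -0.46, and Tfeb, the transcription factor of lysosomal genes, at 0.31.

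Lists of stress genes leaned less to the negative side. Of 19 p53 targets, 18 above the floor, 14 had a shift above 0, against 39.9% of all measured genes, with a median change of 0.06 at day 3 and 0.21 at day 7 and the highest median shift of the 36 lists, 0.10. Btg2, an anti-proliferative gene, was at 9.60, 9.52, 9.44 and 9.87 (0.51), Sesn2, a regulator of nutrient signalling, at 9.95, 9.95, 9.69 and 10.18 (0.50), and Gadd45a at 8.37, 8.50, 8.47 and 9.09 (0.50). In all 3 the day 7 citalopram array was the highest. Of 24 genes of the ATF4 and amino acid response, 12 were above and 12 below 0 (median 0.02). In this list 3 were higher by 1.5-fold (all measured genes 0.752%). These were Nupr1, Trib3, a pseudokinase induced by ATF4, at 8.03, 7.78, 8.08 and 8.67 (0.85), and Atf5 at 9.21, 9.18, 9.20 and 9.83 (0.65). Enzymes of amino acid synthesis in the list, among them Asns (-0.13), Phgdh (-0.11) and Psat1 (-0.03), stayed near 0. Heat shock chaperones had 10 of 13 shifts above 0 with a median of 0.04, and Hspb8 was at -0.48. Antioxidant genes controlled by NRF2 had a median change of 0.21 at day 3 and 0.15 at day 7. Of their shifts 13 of 22 were below 0 (median -0.05), close to the 11972 of 19938 (median -0.05) of all measured genes. Osgin1 was at 0.53 and Hmox1, haem oxygenase 1, at -0.40.

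Most genes of the signalling lists had a shift below 0, as did 11972 of the 19938 measured genes, whose median change went from 0.03 to -0.02. For BMP and TGF-beta signalling the median change went from 0.18 to -0.00, and 22 of 31 shifts were below 0 (median -0.16). Tgfbi, a matrix protein induced by TGF-beta, was at 8.80, 9.07, 8.94 and 8.48 (-0.74), the ligand gene Tgfb2 at 9.99, 10.41, 10.22 and 10.08 (-0.56), and Smad9, a BMP transducer, at 8.60, 8.95, 8.63 and 8.44 (-0.54). For Wnt signalling the change went from 0.12 to -0.04, and 23 of 31 were below 0 (median -0.14), with the co-receptor Lrp4 at -0.45 and the antagonist Sfrp2 at 0.23. For insulin, IGF, PDGF and FGF signalling 21 of 31 were below 0 (median -0.10). Igfbp5, an IGF-binding protein abundant in bone, was at 8.34, 8.93, 8.55 and 8.34 (-0.80). Irs1, the insulin receptor substrate, was at 10.84, 11.50, 11.06 and 12.21, higher at both days and more so at day 7 (0.49, with features from 0.49 to 0.75). Among imprinted growth genes, 11 of 15 were below 0 (8 above the floor; median -0.08), and the list held a large shift of each sign. Peg10 was at 9.76, 10.47, 10.00 and 9.78 (-0.93) and Mest at 10.49, 10.76, 9.89 and 10.97 (0.82).

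Factors by which osteoblasts act on osteoclasts had 12 of 14 shifts below 0, beside 11972 of all 19938 measured genes. Of the 14 genes, 12 were above the floor. Their median shift was -0.17 (all measured genes -0.05), or -0.26 after quantile normalization. In 11 the change was above 0 at day 3 and below 0 at day 7, against 32.1% of all measured genes. The same was seen in 511 of 1027 olfactory receptor genes, mostly below the floor. Tnfrsf11b, osteoprotegerin, the decoy receptor that holds back osteoclast formation, was at 11.49, 11.81, 10.86 and 10.62, a change of 0.32 and then -0.23 (-0.55). Tnfsf11, which encodes RANKL, the ligand that osteoprotegerin binds, was at 7.05, 7.08, 7.16 and 6.89 (-0.31). Among natriuretic peptide and prostaglandin genes, 12 of 16 were below 0 (10 above the floor; median -0.23). Nppb, the gene of B-type natriuretic peptide, was at 8.83, 8.56, 8.29 and 7.13, lower at both days and more so at day 7 (-0.89), and Ptges, a prostaglandin E synthase, was at -0.44. Of 19 genes for serotonin and monoamine handling, 5 reached the floor. The list's median was -0.10, and Maoa, monoamine oxidase A, was at 9.17, 9.24, 9.30 and 9.62 (0.25).

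**Figure D5:**
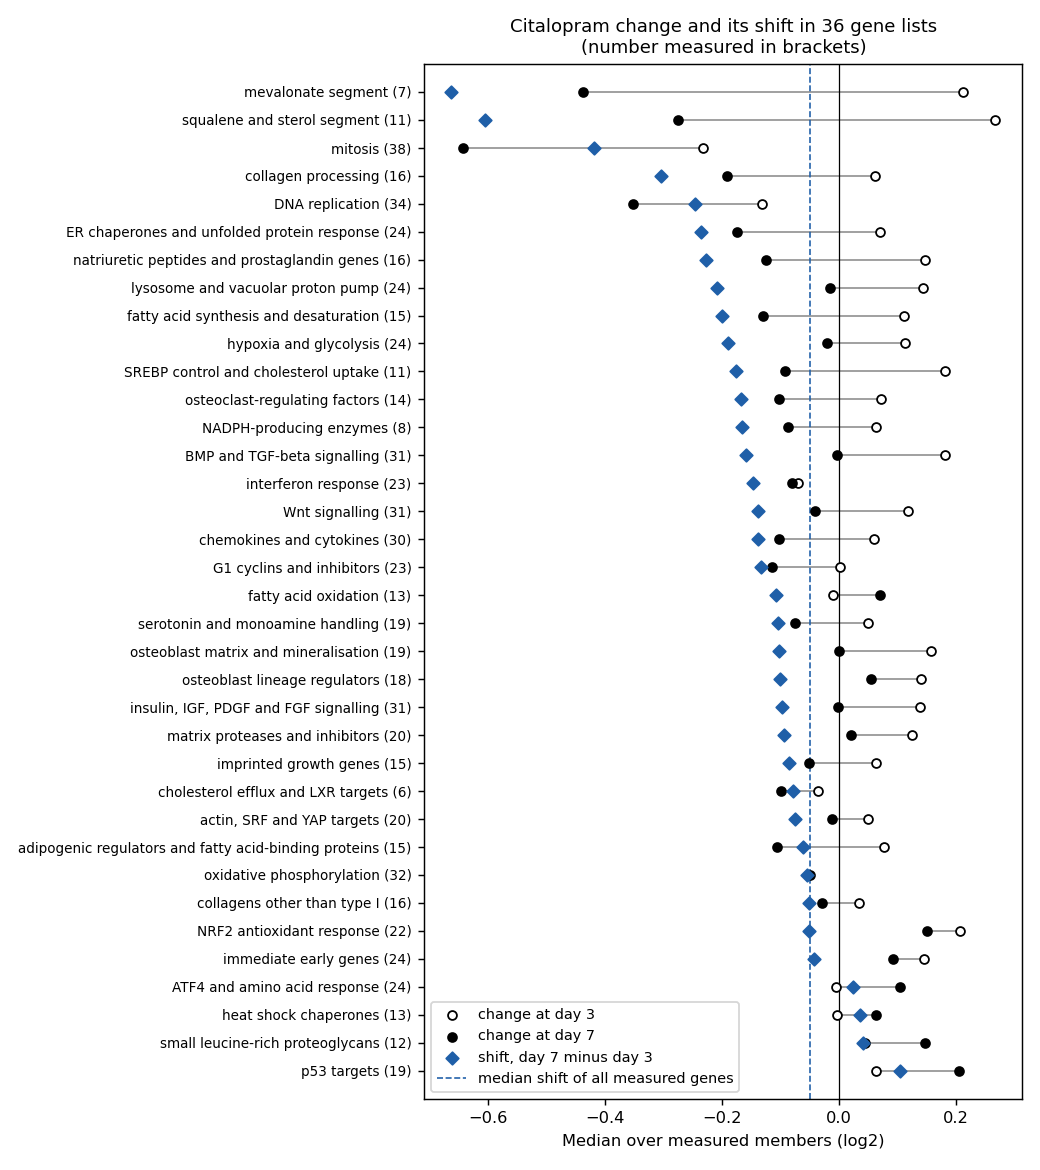
Median change at day 3 (open circles), median change at day 7 (filled circles) and median shift (blue diamonds) over the measured members of 36 gene lists, on the log2 scale, with the median shift of all measured genes, -0.05, as a dashed line. Shifts ran from -0.66 for the mevalonate segment to 0.10 for p53 targets.

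Over the 36 lists, 32 median shifts were below 0 and 31 below that of all measured genes. Of all 19938 measured genes, 11972 had a shift below 0. The lists not described above had medians between -0.19 and -0.04: hypoxia and glycolysis (-0.19, 18 of 24 below 0), NADPH-producing enzymes (-0.17, 6 of 8), matrix proteases and inhibitors (-0.09, 17 of 20), actin, SRF and YAP targets (-0.07, 13 of 20), adipogenic regulators (-0.06, 11 of 15), oxidative phosphorylation (-0.05, 18 of 32) and immediate early genes (-0.04, 13 of 24). Of these 36 medians and those of 8 marker lists, 28 moved by over 1.5 times or changed sign in at least 1 alternative. Members of a list share arrays and can be co-regulated, so the counts are not of separate events.

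Some of the largest citalopram differences hardly shifted. Cacna1g, a T-type calcium channel, was at 9.03, 9.79, 9.72 and 10.47, a change of 0.77 and then 0.75 and a shift of -0.01, although both groups stood higher at day 7. Gstm1, a glutathione transferase, had changes of 0.67 and 0.75 (shift 0.09). Fosb, an AP-1 subunit, was also higher at both days, at 7.13, 8.05, 6.88 and 8.25, but with a larger difference at day 7 (shift 0.46). On the lower side, H2ac4, a histone H2A gene with near-identical copies, had changes of -0.83 and -0.71 (shift 0.12), Shcbp1, a midbody protein, of -0.73 and -0.68 (0.05), Cmbl, a hydrolase, of -0.63 and -0.67 (-0.04), and Cip2a, an inhibitor of the phosphatase PP2A, of -0.53 and -0.66 (-0.14). Shcbp1 belongs to the mitosis list and shows that its members did not share a single course.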

How the data were processed

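Gene expression was measured on 4 Affymetrix arrays, 1 per group, from 250 ng of total RNA each, per the labels' protocols. The authors deposited log2 values, 1 per feature and array; the base is inferred from their range, 3.90 to 15.5. Partek is named in the submitters' processing notes without a version, while the sources used here name no background correction, normalization or probe summarization. If arrays were equalised, a change common to most transcripts would be lost. The number of arrays is what limits precision.

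Among 35556 features, 21789 had 1 gene symbol (61.3%), 1621 several and 12146 none. Of the symbols, 21698 were matched by Entrez number to RefSeq (GRCm38.p6), 91 were not, and 0 differed. The brightest feature over the 4 arrays stood for each of 19938 genes, of which 999 had several. Genes above the 40th percentile of genes on at least 1 array counted as above the floor.

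Changes, shifts and means were differences of the deposited values. A model with an interaction leaves 0 residual degrees of freedom, so no test was made, and "called" means past 2-fold, 1.5-fold or, for opposite changes, 0.322 on the log2 scale. The members, the 36 gene lists and the 8 marker lists were chosen with earlier results of these data known. Of 827 listed members 776 were measured; 51 were not analysed here. Named genes were the 12 largest shifts of each sign, the 3 largest in each list, the 6 largest mean changes with a shift under 0.2 and the 10 clearest opposite changes. Left out were predicted genes (Gm with a number, LOC, Rik), receptor genes Olfr and Vmn, small RNA genes (Mir, Snor, n-R5) and symbols with a dot or "-ps". Further list members are named as examples after their values were seen.

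Promoters were searched on both strands for the motifs given in the report and for TGANTCA and TGACNNNGC. TGANTCA (AP-1) was found in 11.1% of cholesterol promoters and 7.81% of all, and TGACNNNGC (antioxidant element) in 22.2% and 12.4%, and in 22.7% of those of NRF2 genes. Alternatives were quantile normalization, cyclic loess (limma 3.58.1, R 4.3.3), median centring, the mean of a gene's features, other floors and protein-coding genes only. Python 3.11.15, pandas 2.3.3, numpy 2.4.6 and matplotlib 3.10.9 were used, and the computation was tested on simulated data.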

Additional observations from a re-analysis of the deposited data

Results flagged for a closer look

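The results below stood out because the citalopram change lay above 0 at the earlier day and below 0 at the later day, or the reverse, on the only arrays of each group. None of these differences was tested, since no group has a replicate. Median changes of opposite sign gave shifts of -0.66 in the mevalonate segment and -0.60 in the squalene and sterol segment. Changes of more than 0.322 on the log2 scale in opposite directions were found in 48 genes. The clearest of them by the smaller of the changes were Ccl2 (shift -1.89), Ccl7 (-1.39), Idh1 (-1.23), Tarm1 (-1.05), Itga2 (-0.99) and Hspb6, a small heat shock protein (-0.82), all higher at day 3. Brox (0.92), Caap1 (0.90), Nkapd1 (0.86) and Trmt11, a tRNA methyltransferase gene (0.81), were lower at day 3. For Brox the other feature gave -0.04.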

How the results depend on the processing

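Single genes and list medians were recomputed under 5 alternatives (quantile normalization, cyclic loess, median centring, the mean of a gene's features, and protein-coding genes only), while the 4 other floors change counts alone. In those 5, 128 of 130 named genes kept the sign of their shift (not Cacna1g and Shcbp1, both near 0), with no protein-coding value for Phxr4 and Malat1. So did 40 of 44 list medians (not NRF2, oxidative phosphorylation, endothelial and keratinocyte markers), but 28 of the 44, these 4 included, moved by over 1.5 times or changed sign. With cyclic loess the medians of fatty acid oxidation, G1 cyclins, osteoblast matrix, hypoxia and glycolysis, and serotonin handling were -0.06, -0.09, -0.04, -0.12 and -0.04, and that of p53 targets was 0.17. With the floor at the 60th percentile, where fewer genes were counted, 2 positive and 9 negative shifts passed 2-fold, 85 and 136 passed 1.5-fold, and 23 genes had opposite changes. With protein-coding genes only, 1 positive shift passed 2-fold. Quantile normalization took the mevalonate median to -0.76 and the fatty acid synthesis median to -0.31, and Itga2 (-1.01) and Nppb (-1.02) past 2-fold; the cause was not tested. Cyclic loess left 16 of 18 cholesterol genes higher at day 3 and lower at day 7, against 17 on the deposited values. No paired analysis was possible because each group holds 1 array and the labels give no replicate numbers, and no array could be left out because every shift needs all 4. Genes near the floor are limited by their signal over background.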

Other observations

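Families grouped by symbol after their values were seen differed in the sign of their shifts. Of 52 small nucleolar RNA genes, which guide the modification of ribosomal RNA, 49 were above the floor and 45 had a shift above 0, with a median of 0.31, a median change of -0.24 at day 3 and 0.08 at day 7, and 11 shifts higher by 1.5-fold. Of all measured genes, 39.9% had a shift above 0 and 0.752% were higher by 1.5-fold. Of 347 zinc finger genes named Zfp, 235 were above 0 (median 0.10). Ribosomal protein genes were centred on 0, with 30 of 58 above it (median 0.01), and 11 of 17 histone genes were above it (0.06).

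Receptor families that these cells hardly express leaned the other way. Of 1027 olfactory receptor genes, 138 reached the floor and 794 had a shift below 0, with a median of -0.16, and of 167 vomeronasal receptor genes 139 were below 0 (-0.20). These medians are as negative as those of several gene lists in the report. A change above 0 at day 3 and below 0 at day 7 was seen in 511 of the olfactory and 92 of the vomeronasal receptor genes. Solute carrier genes had 258 of 364 shifts below 0 (-0.10) and microRNA genes 179 of 291 (-0.07), the latter close to the 11972 of 19938 (median -0.05) of all measured genes. The 2-fold shifts outside the naming rule were those of Gm24463 (1.30), Mir218-1 (1.26), 1700054O19Rik (1.20) and Gm6020 (1.01) above 0, and of 6 olfactory receptor genes below 0, from Olfr765 (-1.27) to Olfr178 (-1.02). Of 13767 features with several gene symbols or none, 616 had a positive and 207 a negative shift of at least 2-fold, counted without a floor.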
